A study of Mus musculus with 71 samples.

Results

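The Nr4a orphan nuclear receptors are a family of 3 genes, Nr4a1, Nr4a2 and Nr4a3, and all 3 were found by symbol among the 37681 genes of each table. Expression was measured by RNA-seq in tissue punches from the nucleus accumbens (NAc), ventral tegmental area (VTA) and prefrontal cortex (PFC) of adult wild-type C57BL/6 mice (C57BL/6J in the methods of the study) of both sexes, and the sex behind a library is not given in the sources used here. The mice had worked for intravenous cocaine or for saline, and the tissue was taken after 1 day or 28 days of abstinence. The 12 groups of region, time point and treatment held 71 libraries, 6 in each group except for 5 in the saline VTA at 28 days, and each group carried only its treatment and no allele or transgene. The saline mice went through the same surgery, food training and daily sessions as the cocaine mice. Whole tissue was sequenced, so a lower level can stand for fewer cells of a type or for less RNA per cell, and these cannot be told apart.

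Nr4a receptors are transcription factors that need no known ligand, because bulky side chains fill the pocket where other nuclear receptors bind a hormone or lipid. Their genes belong to the immediate early genes, which neurons switch on within minutes of calcium or cAMP signals, largely through CREB and MEF2 bound near their start sites. The proteins bind DNA at the NBRE motif, and Nr4a1 and Nr4a2 can also pair with retinoid X receptors. Nr4a1 (Nur77) is known in the striatum as a gene that answers dopamine and drugs, Nr4a2 (Nurr1) is required for the birth and upkeep of midbrain dopamine neurons, and Nr4a3 (Nor1) is induced by activity with the other two.

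In the mouse genome mm9, Nr4a1 lies on the plus strand of chromosome 15 (101097277 to 101105223) with 1 annotated transcript. Nr4a2 lies on the minus strand of chromosome 2 (56959241 to 56976414) with 6 transcripts, and Nr4a3 on the plus strand of chromosome 4 (48058025 to 48099319) with 4 transcripts. The 250 bases before each start site are shown because the CRE core, through which CREB acts on immediate early genes, recurs in all of them. They are RefSeq sequence of the build GRCm38.p6, 5′ to 3′ on the strand of the gene, and capitals mark TGACG, the core of the cAMP response element (CRE), read on either strand as TGACG or CGTCA. The windows are chr15:101266596-101266845 on the plus strand, chr2:57124004-57124253 on the minus strand and chr4:48045055-48045304 on the plus strand.
Nr4a1: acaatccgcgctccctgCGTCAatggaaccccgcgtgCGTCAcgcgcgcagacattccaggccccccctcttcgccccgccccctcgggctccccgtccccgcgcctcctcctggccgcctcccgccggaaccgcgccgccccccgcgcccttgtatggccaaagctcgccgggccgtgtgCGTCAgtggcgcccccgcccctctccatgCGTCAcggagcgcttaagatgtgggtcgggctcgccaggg
Nr4a2: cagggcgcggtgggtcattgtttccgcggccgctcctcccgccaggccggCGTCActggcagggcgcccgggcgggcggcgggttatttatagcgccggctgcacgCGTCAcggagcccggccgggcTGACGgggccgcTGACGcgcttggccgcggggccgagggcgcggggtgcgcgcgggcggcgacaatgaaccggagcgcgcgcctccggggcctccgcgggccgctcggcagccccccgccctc
Nr4a3: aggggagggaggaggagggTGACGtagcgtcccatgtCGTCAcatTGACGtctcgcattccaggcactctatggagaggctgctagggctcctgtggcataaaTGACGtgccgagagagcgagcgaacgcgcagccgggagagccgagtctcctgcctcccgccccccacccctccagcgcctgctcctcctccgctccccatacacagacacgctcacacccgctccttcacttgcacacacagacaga

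Each of the 3 windows held 4 CRE cores, at 40 to 233 bases before the start of Nr4a1, 111 to 200 before Nr4a2 and 147 to 231 before Nr4a3. Of 27025 mouse promoters of the same length, 17.9% held at least 1 core and 0.152%, or 41 promoters, held 4 or more. The windows are rich in G and C, at 74.4% for Nr4a1, 80.0% for Nr4a2 and 63.6% for Nr4a3, and among the 7446 promoters of 60% or more the share with 4 or more cores was 0.416%. The Nr4a1 and Nr4a2 windows lie well above that cut, and no share was computed for promoters as rich as theirs. The full palindrome TGACGTCA, which contains the core on both strands, was in none of the 3 windows and in 1.62% of all promoters. The Nr4a binding motif AAAGGTCA, searched on both strands, was in none of the 3 and in 1.31% of all promoters. These are matches of letters, and no binding was measured here.

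The libraries held between 20971967 and 49700932 reads on genes, and those of 28 days were deeper than those of 1 day by median in every region. Markers were highest in the labelled regions. In the NAc 9 markers of striatal medium spiny neurons summed to 4163 to 8993 CPM, counts scaled to the size of the library, against 266 to 470 in the VTA. In the VTA 8 dopamine neuron markers summed to 1179 to 5544 CPM, against 9.91 to 41.0 in the other regions. In the PFC 6 cortical excitatory neuron markers summed to 1436 to 2398 CPM. These cortical markers also reached 862 CPM in the NAc and 247 CPM in the VTA, so not every punch was free of them. Library 4 of the saline PFC at 28 days stood apart, with a striatal sum of 3167 CPM where the other 11 PFC libraries of that time point had 254 to 344, and the values of the members and lists that rest on it are given with and without it. Libraries are named here by their number within the group.

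Baseline levels in saline mice placed Nr4a1 and Nr4a3 highest in the PFC and lowest in the VTA, and Nr4a2 highest in the VTA. Levels are given per length as RPKM, in which counts are scaled by transcript length and library size, so that genes and regions can be set side by side. At 1 day, Nr4a1 was at 16.4 ± 3.51 RPKM (SD, n = 6) in the PFC, 11.8 ± 3.35 in the NAc and 2.91 ± 0.549 in the VTA. Nr4a3 followed the same order at 5.58 ± 0.727 in the PFC, 2.08 ± 0.466 in the NAc and 0.297 ± 0.0758 in the VTA. Nr4a2 was at 17.4 ± 4.90 RPKM in the VTA, against 2.67 ± 0.249 in the PFC and 2.87 ± 2.16 in the NAc. Within a region, Nr4a1 was thus the member with the highest level in the NAc and PFC and Nr4a2 in the VTA.

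**Figure D1:**
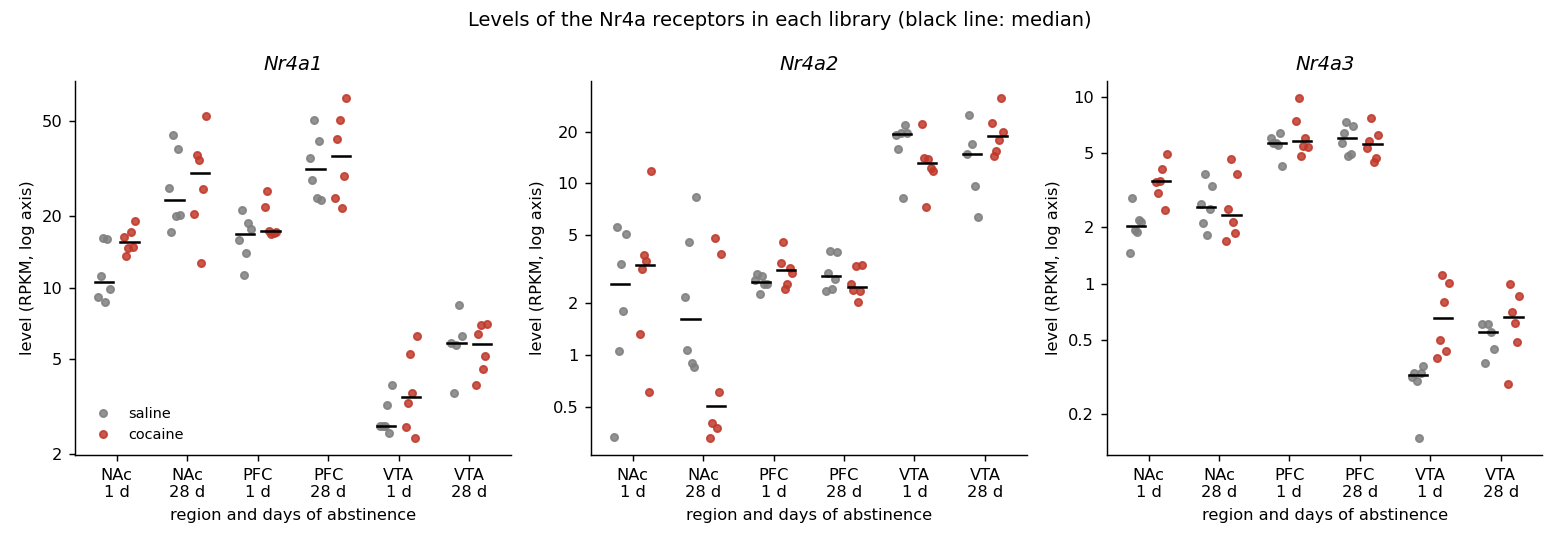
Level of each Nr4a gene in every library, in RPKM on a log axis, by region and days of abstinence, with saline in grey, cocaine in red and the group median as a black line. Nr4a1 and Nr4a3 sit lowest in the VTA, where Nr4a2 sits highest, and the Nr4a2 points of the NAc are spread from 0.327 to 11.7 RPKM.

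In an edgeR quasi-likelihood model of the saline libraries at 1 day, all 3 members differed between the NAc and VTA, where 66% of the 16430 genes tested were called at an adjusted p under 0.05. On the log2 scale, NAc over VTA, Nr4a1 was higher by 2.09 (SE 0.171, edgeR adjusted p = 1.68e-09), Nr4a3 higher by 2.87 (SE 0.176, 2.01e-11), and Nr4a2 differed by -2.52 (SE 0.415, 2.35e-05). The groups did not overlap for any of the 3, as for 42.5% of genes. Between the PFC and VTA all 3 were again called, with 64.6% of genes, at 2.61 for Nr4a1, -2.60 for Nr4a2 and 4.33 for Nr4a3, and again none of the groups overlapped, as for 44.2% of genes. Most genes were called between these tissues, so the calls alone do not set the family apart.

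The NAc and PFC were closer. At 1 day 40.9% of genes were called between them, and among the members these were Nr4a3, which was lower in the NAc by -1.46 on the log2 scale (SE 0.147, edgeR adjusted p = 8.7e-08), and Nr4a1, lower by -0.52 (SE 0.158, 0.0114). The Nr4a3 groups did not overlap, as for 23.7% of genes, whereas the Nr4a1 groups did. Nr4a2 differed by 0.08 (SE 0.417, edgeR adjusted p = 0.902), with NAc libraries from 0.330 to 5.57 RPKM on both sides of the PFC libraries at 2.27 to 2.97 RPKM.

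At 28 days the order of the regions was the same for Nr4a1 and Nr4a3. NAc over VTA was 2.31 for Nr4a1 (SE 0.285, edgeR adjusted p = 1.54e-06), -2.18 for Nr4a2 (SE 0.515, 0.00129) and 2.49 for Nr4a3 (SE 0.198, 6.45e-09), with 62.5% of 17181 genes called. Nr4a1 and Nr4a3 did not overlap between these regions, as for 40.2% of genes, while 1 NAc library with 8.34 RPKM of Nr4a2 lay above the lowest VTA library at 6.38. PFC over VTA was 2.64, -2.09 and 3.69, all called (57.8% of genes) and none overlapping (37.4% of genes). NAc over PFC was called for Nr4a3 at -1.20 (SE 0.17, adjusted p = 2.11e-05; 40.7% of genes called, 28.3% without overlap) and the Nr4a3 groups did not overlap. It was not called for Nr4a1 at -0.32 (edgeR adjusted p = 0.331) or for Nr4a2 at -0.09 (0.903). The fit takes the libraries as independent, and Nr4a1 was higher in the PFC than in the same-numbered NAc library in all 6 saline pairs, by 0.12 to 0.72 on the log2(RPKM + 0.1) scale, although no source gives these pairs. Without saline PFC library 4 the NAc over PFC values were -0.39, -0.14 and -1.23 and the PFC over VTA values 2.73, -2.02 and 3.75, with the same calls.

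Cocaine against saline in the NAc at 1 day gave the largest log2 fold change of Nr4a1 among the 6 comparisons. For Nr4a3 it gave the largest outside the VTA. Nr4a3 was at 1.45, 1.90, 1.93, 2.13, 2.19 and 2.87 RPKM in the 6 saline libraries and at 2.47, 3.05, 3.51, 3.55, 4.13 and 4.92 RPKM in the 6 cocaine libraries. Of the cocaine libraries, 5 lay above every saline library and all 6 above the saline median. The log2 fold change, cocaine over saline, was 0.82 (SE 0.179), or 1.77-fold, from 254 to 810 reads per library. It ranked as number 13 of 15878 genes by its edgeR p-value and did not pass the adjustment over all genes (edgeR adjusted p = 0.511), where 0.0126% of genes, 2 in all, were called. The two-sided exact permutation test of the 6 against 6 libraries gave p = 0.00433 without adjustment over the 18 such tests of the members. DESeq2 on the same counts called Nr4a3 at 0.82 (adjusted p = 0.0108), among 21 genes, so the call rests on the choice of test. Cortical excitatory neuron markers summed to 10.8 to 638 CPM in these saline libraries and to 13.5 to 862 in the cocaine libraries, with medians of 248 and 198, and none of the 6 marker genes was at 0 throughout.

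Nr4a1 in the NAc at 1 day was at 8.74 to 16.1 RPKM after saline, with a median of 10.5, and at 13.5 to 19.1 after cocaine, with a median of 15.6. All 6 cocaine libraries lay above the saline median and 3 above every saline library, since saline libraries 3 and 5, at 16.1 and 15.9 RPKM, lay among the cocaine libraries. The log2 fold change was 0.46 (SE 0.148), or 1.38-fold, ranked as number 119, with an edgeR adjusted p of 0.99, and the exact permutation test gave p = 0.0346. Nr4a2 was between 0.330 and 5.57 RPKM after saline and between 0.606 and 11.7 after cocaine, with a log2 fold change of 0.52 (SE 0.665, edgeR adjusted p = 1, exact permutation p = 0.628). The 2 Nr4a2 groups overlapped, and the highest value came from a single cocaine library, whose next neighbour was at 3.81.

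At 28 days in the NAc none of the 3 members separated the treatments, and no gene was called by edgeR (0% of 16295 tested, with 1102 at an unadjusted p under 0.05 and 20 called by DESeq2). Nr4a1 had medians of 23.2 RPKM after saline (17.1 to 43.7) and 30.2 after cocaine (12.7 to 52.5), with a log2 fold change of 0.13 (SE 0.302, edgeR adjusted p = 0.96). Nr4a3 had medians of 2.58 and 2.32 RPKM and a log2 fold change of 0.03 (SE 0.248, adjusted p = 0.989). Nr4a2 had medians of 1.63 and 0.504 RPKM, with 4 cocaine libraries at 0.33 to 0.60 and the other two at 3.87 and 4.84, and a log2 fold change of -0.77 (SE 0.746, edgeR adjusted p = 0.887). The exact permutation tests gave p = 0.803 for Nr4a1, 0.242 for Nr4a2 and 0.935 for Nr4a3.

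The difference between the time points was tested as an interaction over the 24 NAc libraries, in which 0.0181% of 16612 genes were called. The signed difference, log2 fold change at 28 days minus that at 1 day, was -0.78 for Nr4a3 (SE 0.327, edgeR adjusted p = 0.932). It was -0.32 for Nr4a1 (SE 0.369, 0.999) and -1.29 for Nr4a2 (SE 1.08, 0.999), whose fold change went from 0.52 to -0.77. None of the 3 passed, so an effect of cocaine on the family limited to early abstinence was not shown by this test.

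**Figure D2:**
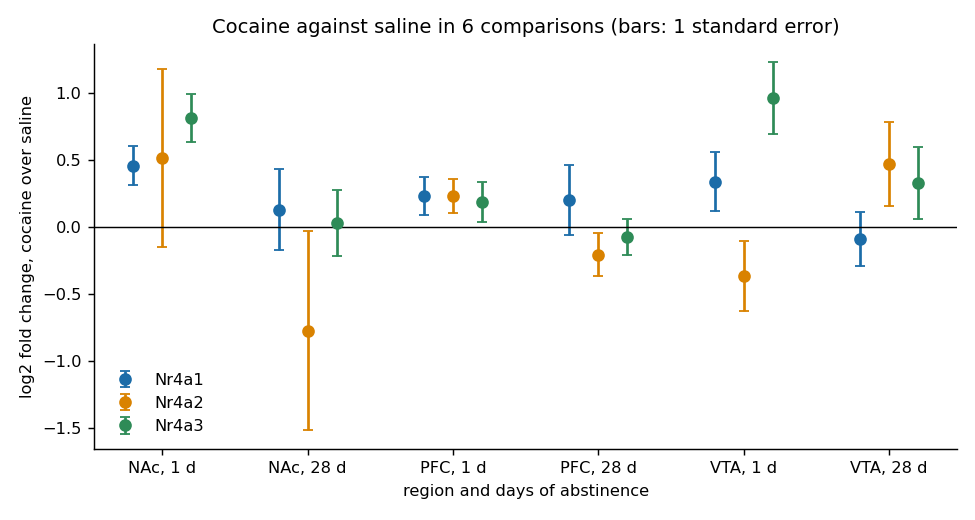
Log2 fold change of cocaine over saline for Nr4a1 (blue), Nr4a2 (orange) and Nr4a3 (green) in the 6 comparisons, with bars of 1 standard error. The fold changes of the VTA and PFC at 1 day are on the log2(RPKM + 0.1) scale and the others come from read counts, and the 2 values farthest above 0 are those of Nr4a3 in the VTA (0.96) and the NAc (0.82) at 1 day.

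In the VTA at 1 day, Nr4a3 was again higher in the cocaine libraries, from a low level. The 6 saline libraries were at 0.15, 0.30, 0.31, 0.33, 0.33 and 0.36 RPKM (20 to 55 reads) and the 6 cocaine libraries at 0.40, 0.43, 0.50, 0.80, 1.01 and 1.11 RPKM (57 to 151 reads). The groups did not overlap, which held with cocaine above saline for 1.3% of the 15042 genes tested. On the log2(RPKM + 0.1) scale, which understates the change of low genes, the difference was 0.96 (SE 0.267, limma adjusted p = 0.134), while 0.0665% of genes were called. The exact permutation p was 0.00216, the smallest that 6 against 6 libraries can give. Counted as reads recovered from the RPKM, edgeR gave 1.20 (SE 0.287, adjusted p = 0.0958). Nr4a3 passed the minimum mean of 0.5 RPKM through its cocaine libraries alone. Its limma result and the share of genes without overlap rest on that filter and are given as a description. Without the filter the limma adjusted p was 0.175.

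Nr4a1 in the VTA at 1 day was at 2.45 to 3.89 RPKM after saline and 2.33 to 6.27 after cocaine, a difference of 0.34 (SE 0.22, limma adjusted p = 0.488, exact permutation p = 0.223). Nr4a2 was at 8.24 to 21.9 RPKM after saline, with a median of 19.4, and at 7.29 to 22.2 after cocaine, with a median of 13.2, a difference of -0.36 (SE 0.262, limma adjusted p = 0.543, exact permutation p = 0.264). For Nr4a2, 1 cocaine library was above the saline median.

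Markers of other tissue moved with these VTA groups. The summed level of 6 cortical excitatory neuron markers was 6.19 to 92.4 CPM after saline (median 12.8) and 17.6 to 228 after cocaine (median 62.0), that of 5 meningeal fibroblast markers 51.9 to 321 and 153 to 1384, and that of 8 dopamine neuron markers 1865 to 4789 and 1180 to 2843, with no marker at 0 in every library. Cocaine libraries 6 and 3, at 228 and 200 CPM of cortical markers, were also the 2 with the highest Nr4a1 (6.27 and 5.27 RPKM) and Nr4a3 (1.01 and 1.11 RPKM). Without them, an alternative chosen after seeing the data, the Nr4a1 difference was 0.02 (limma) and that of Nr4a2 -0.13, and Nr4a3 was below the filter in limma and at 0.81 in edgeR on recovered reads (SE 0.249, edgeR adjusted p = 0.191). These 2 libraries were the highest in Nr4a1 and Nr4a3, so leaving them out lowers both differences whatever the markers. It therefore cannot show the part of these cells in the result, which was not tested.

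In the VTA at 28 days the members overlapped between the treatments, and edgeR called no gene (0% of 16937, with 1942 at an unadjusted p under 0.05 and 83 called by DESeq2). Nr4a1 was at 3.62, 5.77, 5.84, 6.28 and 8.45 RPKM in the 5 saline libraries and at 3.91 to 7.05 in the 6 cocaine libraries, with a log2 fold change of -0.09 (SE 0.202, edgeR adjusted p = 0.865). Nr4a2 was at 6.38, 9.60, 14.8, 17.1 and 25.0 RPKM after saline and at 14.5 to 31.5 after cocaine, at 0.47 (SE 0.316, adjusted p = 0.528). Nr4a3 was at 0.38, 0.45, 0.55, 0.60 and 0.61 RPKM after saline and at 0.29 to 0.99 after cocaine, at 0.33 (SE 0.27, edgeR adjusted p = 0.595). The exact permutation tests gave p = 0.786, 0.149 and 0.394 for Nr4a1, Nr4a2 and Nr4a3. Dopamine neuron markers were at 1179 to 5544 CPM after saline and 1739 to 5075 after cocaine.

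The interaction with time in the VTA, where 0% of 17197 genes were called (2691 had an unadjusted p under 0.05, and DESeq2 called 199), was -0.88 for Nr4a3 (SE 0.409, edgeR adjusted p = 0.299), 0.87 for Nr4a2 (SE 0.419, 0.32) and -0.47 for Nr4a1 (SE 0.324, 0.517). At 1 day the cocaine effect was also compared between regions. Against the VTA, where 0.106% of 16984 genes were called, the NAc effect differed by 0.09 for Nr4a1, 0.92 for Nr4a2 and -0.38 for Nr4a3 (edgeR adjusted p of 0.752 or more). Against the PFC, where 0% were called by edgeR or DESeq2 (330 had an unadjusted p under 0.05 in edgeR), it differed by 0.22, 0.24 and 0.58 (SE 0.285 for Nr4a3, edgeR adjusted p = 1 for each). An effect of cocaine on Nr4a1 or Nr4a3 particular to the NAc was therefore not shown.

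In the PFC no member was called for cocaine against saline at either time point. At 1 day Nr4a1 had medians of 16.8 RPKM after saline and 17.2 after cocaine, Nr4a2 of 2.65 and 3.12, and Nr4a3 of 5.66 and 5.78. The differences were 0.23 (SE 0.141), 0.23 (SE 0.128) and 0.19 (SE 0.148), each with a limma adjusted p of 0.913, and 0.00693% of 14427 genes, 1 in all, were called. Cocaine libraries 1 and 2 were the highest of all 12 for each of the 3 genes. At 28 days the log2 fold changes were 0.20 for Nr4a1 (SE 0.262), -0.20 for Nr4a2 (SE 0.159) and -0.07 for Nr4a3 (SE 0.133), with edgeR adjusted p-values of 0.872 to 0.942 and 0% of 16340 genes called (925 had an unadjusted p under 0.05, and DESeq2 called 2). Without saline library 4 they were 0.12, -0.26 and -0.12. The interaction with time was called for 0.00604% of 16565 genes and for no member, at -0.03, -0.48 (SE 0.219, edgeR adjusted p = 0.994) and -0.30, or -0.11, -0.54 and -0.36 without that library. Across the 18 comparisons of cocaine with saline, edgeR or limma called none of the members at an adjusted p under 0.05. With edgeR for the count tables and limma for the RPKM tables, an unadjusted p under 0.05 was reached in 3. These were Nr4a1 and Nr4a3 in the NAc and Nr4a3 in the VTA, all at 1 day. Nr4a3 in the VTA passed the filter on low values through its cocaine libraries alone.

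The gap between the time points in saline mice was larger than any cocaine effect on Nr4a1. In the NAc its level was 11.8 ± 3.35 RPKM (SD, n = 6) at 1 day and 27.5 ± 10.9 at 28 days, in the PFC 16.4 ± 3.51 and 33.6 ± 10.7, and in the VTA 2.91 ± 0.549 and 5.99 ± 1.72 (n = 5). The log2 differences, 28 days over 1 day, were 1.27 in the NAc (SE 0.265, edgeR adjusted p = 0.000205), 1.08 in the PFC (SE 0.231, 0.000201) and 1.07 in the VTA (SE 0.235, 0.000848). The Nr4a1 groups did not overlap in the NAc (39.3% of genes) or the PFC (42.3%), and 63.2% of genes in the NAc, 66.3% in the PFC and 44.8% in the VTA were called, so a call by itself does not mark Nr4a1. The cocaine libraries gave 0.95, 1.06 and 0.60, all called. The mice at 28 days were also older, and the 2 time points came in separate tables, so days of abstinence, age and any difference in how the 2 sets were prepared cannot be told apart. Without saline PFC library 4 the PFC difference was 1.16.

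Nr4a3 in saline VTA was higher at 28 days by 0.83 (SE 0.3, edgeR adjusted p = 0.0281), at 0.297 ± 0.0758 RPKM (SD, n = 6) and 0.517 ± 0.102 (n = 5), and the groups did not overlap (25.3% of genes). The call was lost without saline library 4 of day 1 (0.70, adjusted p = 0.0623) or without saline library 1, 3 or 4 of day 28 (0.75, 0.75 and 0.78, adjusted p of 0.0577 to 0.0634), and the cocaine libraries gave -0.05. Nr4a3 in the NAc (0.42, edgeR adjusted p = 0.117) and PFC (0.17, 0.341) and Nr4a2 in the NAc, VTA and PFC (0.09, -0.22 and 0.27) were not called. Without saline PFC library 4 the PFC differences were 0.21 for Nr4a3 and 0.32 for Nr4a2.

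Other immediate early genes, a list of 20 that leaves out the Nr4a genes, were compared in the same fits. The list includes Fos, a subunit of the AP-1 transcription factor, and Egr2, a zinc finger factor. In the NAc at 1 day 17 of the 20 had a log2 fold change above 0, 7 reached p under 0.05 before adjustment, all with cocaine higher (2.76% of all genes did so in that direction), and none was called, with a median of 0.21 against -0.001 over all genes. Fos was at 0.95 (SE 0.267, edgeR adjusted p = 0.95) and Egr2 at 0.87 (SE 0.272, 0.99). The Nr4a3 value of 0.82 lay just under these and the Nr4a1 value of 0.46 above the median of the list. In the PFC at 1 day 18 of 19 tested were above 0 (median 0.18), and 5 reached p under 0.05 before adjustment with cocaine higher (1.67% of all genes). In the VTA at 1 day 15 of the 20 passed the filter on low values, which genes high after cocaine pass more readily, and of these 9 reached p under 0.05 before adjustment with cocaine higher (11.2% of all genes), with a median of 0.40 and Fos at 1.07 (SE 0.456, limma adjusted p = 0.284). None was called there either, beside the cortical and meningeal markers given above.

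**Figure D3:**
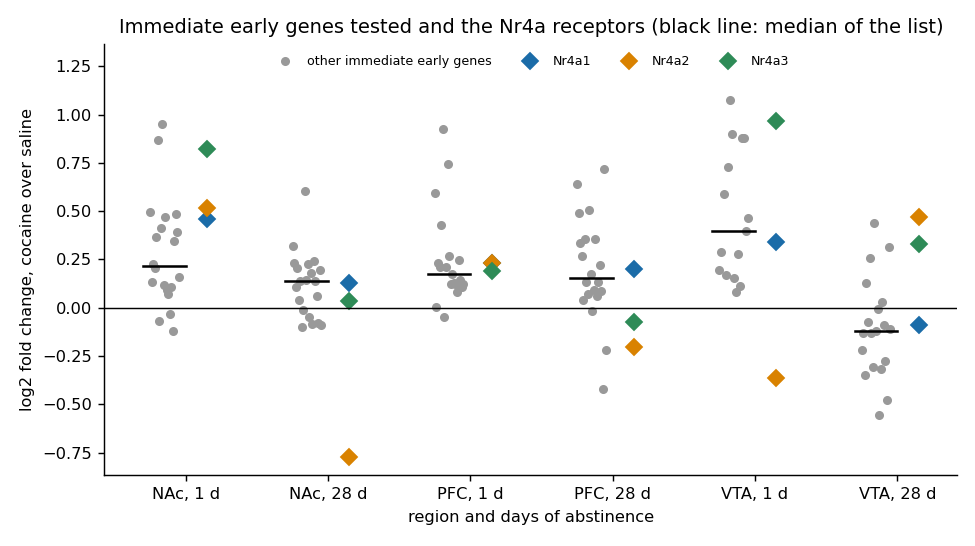
Log2 fold change of cocaine over saline for the other immediate early genes tested (grey points, with the median of the list as a black line) and for Nr4a1 (blue), Nr4a2 (orange) and Nr4a3 (green) in the 6 comparisons. In the NAc at 1 day the median of the list is 0.21 with Fos at 0.95, and in the VTA it is 0.40 at 1 day and -0.12 at 28 days.

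At 28 days the same list had medians of 0.14 in the NAc, 0.15 in the PFC and -0.12 in the VTA, with 14 of 20, 17 of 20 and 5 of 19 genes above 0 and none called, and without saline PFC library 4 the PFC median was 0.18 with 18 of 20 above 0. The VTA value stood beside the lower cortical and meningeal marker medians after cocaine given above. Between time points in saline mice, by contrast, 15 of 20 were called higher at 28 days in the NAc, 17 of 20 in the PFC and 12 of 19 in the VTA, with medians of 0.78, 0.88 and 0.97 (all genes -0.03, -0.02 and 0.03). Of all genes 31.4%, 33.8% and 26.2% were called higher there, and without saline PFC library 4 the PFC count was again 17 of 20, with a median of 0.87. The genes called in all 3 regions were Fos, Egr1, Egr4, Arc, Jun, Junb, Ier2, Ier5, Dusp1, Klf4 and Per1, with the widest difference for Junb, an AP-1 subunit, at 3.81 in the NAc, 4.12 in the PFC and 3.82 in the VTA. Egr2, Egr3 and Fosb were called in the NAc and PFC, Npas4 in the NAc, Dusp6 in the PFC and VTA, and Fosl2 and Maff in the PFC. Fos differed by 1.30 in the NAc (edgeR adjusted p = 0.0115), 1.54 in the PFC (0.00112) and 1.84 in the VTA (0.00215). The Nr4a1 differences of 1.07 to 1.27 thus lay above the medians of the list in each region, and those of Nr4a3, at 0.17 to 0.83, below them.

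Factors that act on Nr4a transcription, a list of 11 with CREB, its coactivators, MEF2 factors and SRF, held no called gene in any comparison of cocaine with saline. Their medians lay between -0.04 and 0.19, and the highest, in the VTA at 1 day, came with 3 genes at an unadjusted p under 0.05 and cocaine higher, where 11.2% of all genes were. In the PFC at 28 days the median was -0.03, or 0.03 without saline library 4. Crem, an inducible relative of CREB, was at 0.15 in the NAc at 1 day (SE 0.123, edgeR adjusted p = 1) and Srf, which drives many immediate early genes, at 0.10 (SE 0.0878, 1). Between time points in saline mice, where 63.2%, 66.3% and 44.8% of all genes in the NAc, PFC and VTA were called in either direction, Srf, Crtc1 and Crtc3 were called higher at 28 days in all 3 regions, with Srf at 0.97 in the NAc, 0.90 in the PFC and 0.80 in the VTA, and Creb1 was called lower in all 3, at -0.45, -0.50 and -0.22. Mef2d was called higher in the NAc and PFC, Crtc2 higher in the VTA, Mef2c lower in the NAc and PFC, and Mef2a and Camk4 lower in the PFC and VTA, and without saline PFC library 4 the PFC again had 4 called higher and 4 lower. Of the retinoid X receptors that pair with Nr4a1 and Nr4a2, Rxrb was at -0.11 and Rxra at 0.05 for cocaine against saline in the NAc at 1 day, and none of the 3 was called for cocaine against saline in any region. Between time points, where calls were as common as given above, all 3 were called higher at 28 days in saline NAc and PFC (also without saline PFC library 4), and Rxra and Rxrb in the VTA, with Rxra at 0.76, 0.71 and 0.45 on the log2 scale.

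Genes named as targets were followed too. Cbl (a ubiquitin ligase), Per2 (a clock component) and Cartpt (the precursor of CART peptides) were chosen by the study as known Nr4a1 targets regulated in abstinence. Since these samples entered that choice, their values here are no independent evidence of a direction. The study also reports Nr4a1 binding at their promoters and qPCR in a separate group of mice, which were not analysed here. Per2 was at 7.03 ± 0.884 RPKM (SD, n = 6) after saline and 9.84 ± 1.31 after cocaine in the NAc at 1 day, a log2 fold change of 0.51 (SE 0.095, edgeR adjusted p = 0.279), and at -0.29 (SE 0.086, 0.592) at 28 days. It was at 0.59 in the VTA and 0.27 in the PFC at 1 day. Cbl was at 0.21 in the NAc at 1 day (SE 0.0501, edgeR adjusted p = 0.617) and 0.12 at 28 days. Cartpt was at 0.04 in the NAc at 1 day, and at 28 days at 22.4 ± 8.44 RPKM after saline and 37.2 ± 6.89 after cocaine (log2 fold change 0.73, SE 0.188, edgeR adjusted p = 0.592). None of the 3 was called in any comparison of cocaine with saline.

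Of 10 genes known as Nr4a targets in dopamine neurons and the pituitary, 9 could be tested in the VTA at 1 day, and 5 had an unadjusted p under 0.05 with cocaine lower (4.57% of all genes), none called, with a median of -0.54 against 0.03 over all genes. Slc6a3, the dopamine transporter, was at -0.84 (SE 0.25, limma adjusted p = 0.167) and Ret, a neurotrophic receptor, at -0.54 (0.318). Several of these genes are also among the dopamine neuron markers, whose sum was given above. In the VTA at 28 days the median of the list was 0.12.

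Within groups Nr4a2 varied more between NAc libraries than nearly every other gene. The SD of its log2 CPM around the group means was 1.48 at 1 day and 1.55 at 28 days, against medians over all genes of 0.176 and 0.139, which placed it above 99.89% and 99.96% of genes. Nr4a1 had an SD of 0.305 in the NAc and 0.290 in the PFC at 1 day and of 0.636 and 0.539 at 28 days, above 99.2% and 99.0% of genes at the later time point. Nr4a3 in the NAc was at 0.330 and 0.50 at the same time points.

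The libraries that were high in Nr4a2 in the NAc were high in cortical markers. With group means removed, the log2 level of Nr4a2 followed the summed cortical excitatory neuron markers (10.8 to 862 CPM over both treatments at 1 day, 14.8 to 625 at 28 days) over 12 libraries at 1 day with a Pearson r of 0.933 (permutation p = 8.0e-05) and a Spearman rho of 0.888 (p = 0.00068). At 28 days r was 0.878 (permutation p = 0.00106) and rho 0.846 (p = 0.00245). The adjusted p-values over the 36 relations computed were 0.00144 and 0.0117, and without the 2 libraries farthest from the median r was 0.839 and 0.852. Cocaine library 6 at 1 day had the highest Nr4a2 (11.7 RPKM) and the highest marker sum (862 CPM) of its 12. Nr4a3 in the NAc gave r = 0.780 at 1 day (permutation p = 0.00607, rho 0.699, p = 0.0201, adjusted p = 0.0273), which was 0.455 without the 2 farthest libraries, and 0.748 at 28 days (permutation p = 0.0158, rho 0.706, p = 0.0294, adjusted p = 0.0518). Nr4a1 at 1 day gave 0.114 (permutation p = 0.768, rho 0.0559, p = 0.876), and at 28 days 0.491 (permutation p = 0.149, rho 0.497, p = 0.137).

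**Figure D4:**
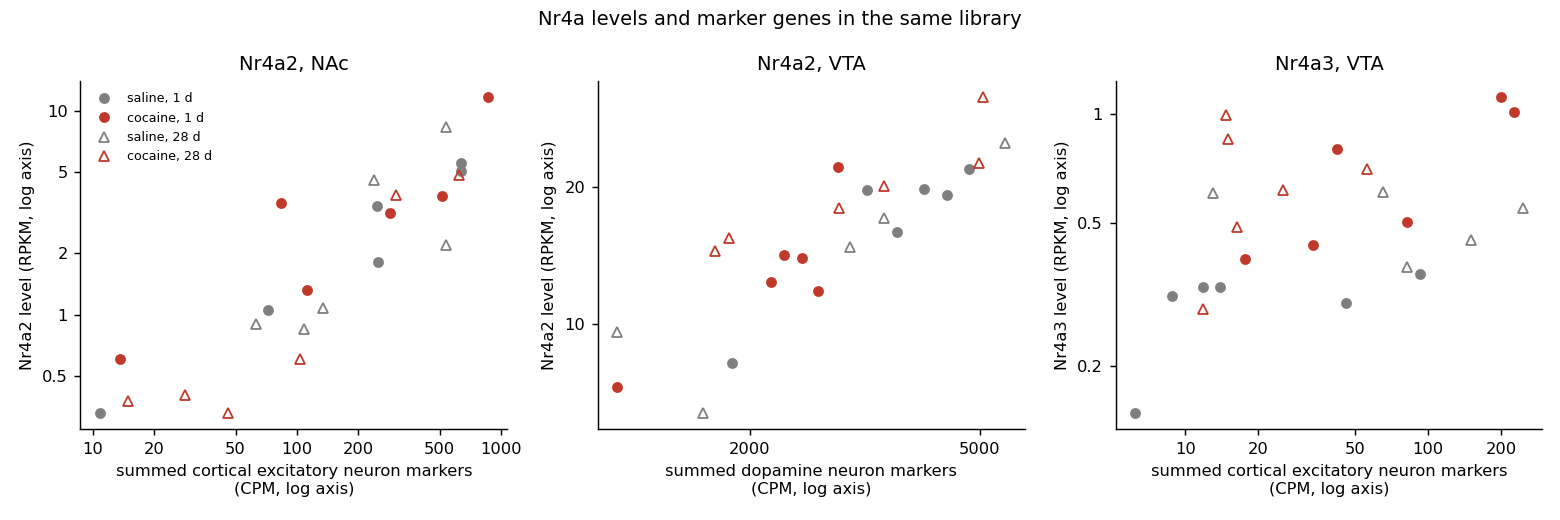
Level of Nr4a2 in the NAc and VTA and of Nr4a3 in the VTA (RPKM, log axis) against the summed marker genes of the same library (CPM, log axis), with saline in grey, cocaine in red, filled circles for 1 day and open triangles for 28 days. Nr4a2 in the NAc follows the cortical markers over the range of 10.8 to 862 CPM, and in the VTA it follows the dopamine neuron markers.

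In the VTA, Nr4a2 went with the dopamine neuron markers, a list that does not contain it. Over the 12 libraries at 1 day r was 0.899 (permutation p = 0.00174) and rho 0.699 (p = 0.0169), and over the 11 at 28 days r was 0.888 (permutation p = 0.0013) and rho 0.936 (p = 0.00021), with adjusted p-values of 0.0125 and 0.0117. Without the 2 farthest libraries r was 0.502 at 1 day and 0.913 at 28 days, so the relation at 1 day rests partly on those. Nr4a1 in the VTA went the other way at 28 days, at r = -0.801 (permutation p = 0.00821, rho -0.800, p = 0.00952, adjusted p = 0.0328), and followed the cortical markers at 1 day at r = 0.722 (permutation p = 0.00978, rho 0.538, p = 0.0925, adjusted p = 0.0352), or 0.531 without the 2 farthest. Nr4a3 in the VTA at 1 day gave r = 0.709 against the cortical markers (permutation p = 0.0173, rho 0.699, p = 0.022, adjusted p = 0.052), or 0.669 without the 2 farthest. At 28 days the relations to the cortical markers in the VTA were 0.345 for Nr4a1 (permutation p = 0.37) and -0.015 for Nr4a3 (permutation p = 0.958). Against the dopamine neuron markers at 1 day Nr4a1 gave -0.409 (permutation p = 0.196). Deep cortical neurons and midbrain dopamine neurons are both known to express Nr4a2. Saline PFC libraries at 1 day, however, had 1486 to 1771 CPM of the cortical markers with 2.27 to 2.97 RPKM of Nr4a2. A list of 7 claustrum and layer 6b markers summed to 334 to 439 CPM after saline in the NAc at 1 day. After cocaine it summed to 342 to 479 CPM there, and its relation to Nr4a2 was not computed. What part tissue composition had in these values was not tested.

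The genes whose levels over the 71 libraries were most like each member, with group means removed and out of 13816 other genes, are given as a description. For Nr4a1 they were Arc (r = 0.869), Fos (0.841), Dusp1 (0.833), Sik1 (0.765) and Egr1 (0.752), all known as activity-induced genes. The likeness differed between sets of libraries. Within the NAc these 5 ranked 110, 2070, 117, 291 and 1889 at 1 day, and 2, 8, 27, 77 and 9 at 28 days. For Nr4a2 they were Neurod6 (0.862), Prss12 (0.857), Cck (0.837), Nxph3 (0.818) and Prdm8 (0.815), of which Neurod6 is among the cortical markers used here. Within the VTA, Nr4a2 instead went with Th, the enzyme that limits dopamine synthesis, at 0.934 at 1 day and 0.936 at 28 days. For Nr4a3 they were Fosl2 (0.769), P4ha1 (0.674), Ak4 (0.658), Fos (0.643) and Crem (0.624). Between members r was 0.578 for Nr4a1 and Nr4a3, 0.481 for Nr4a2 and Nr4a3 and 0.158 for Nr4a1 and Nr4a2. Nr4a2 and Nr4a3 went together in the NAc (0.844 at 1 day and 0.901 at 28 days) and PFC (0.791 and 0.861) but not in the VTA (-0.06 and -0.34).

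Libraries with the same number in the NAc and the PFC were compared after their values had been seen. At 28 days Nr4a1 in the NAc followed Nr4a1 in the PFC over 12 pairs at r = 0.938 with group means removed (permutation p = 7.0e-05, rho 0.902, p = 0.00051, adjusted p over 36 relations 0.00144), 0.908 without the 2 farthest pairs, and 0.947 within the cocaine and 0.923 within the saline libraries. Cocaine library 6 was the highest in both regions, at 52.5 RPKM in the NAc and 62.5 in the PFC, and cocaine library 4 the lowest in both, at 12.7 and 21.6 RPKM. Nr4a2 gave 0.829 (permutation p = 0.00367, rho 0.566, p = 0.0637, adjusted p = 0.0189) and Nr4a3 0.819 (permutation p = 0.00258, rho 0.762, p = 0.00812, adjusted p = 0.0155). The sources do not say that the same number at 28 days marks the same mouse, and the column numbers differ from those of the sample labels.

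**Figure D5:**
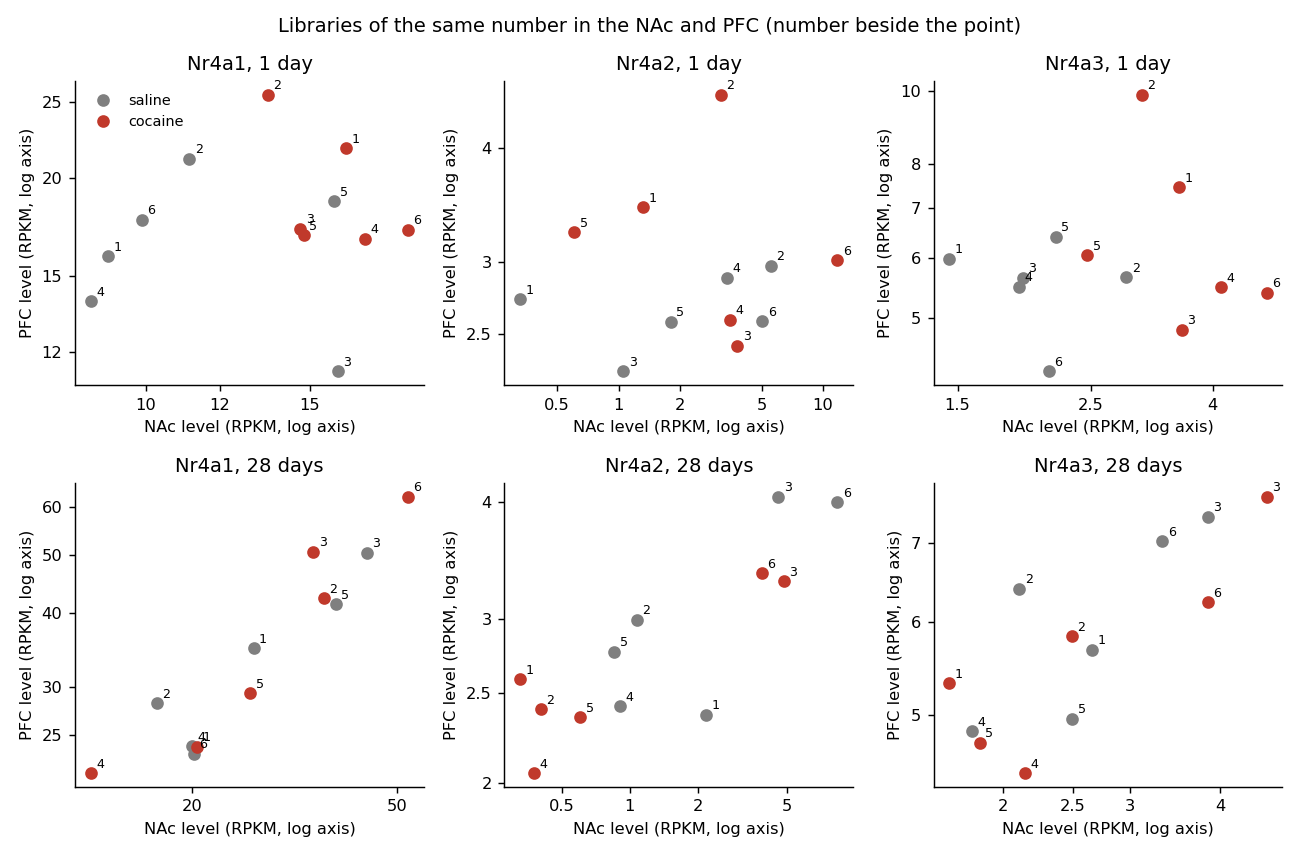
Level of each Nr4a gene in the NAc (horizontal, RPKM, log axis) and in the PFC library of the same number (vertical, RPKM, log axis), with 1 day above and 28 days below, saline in grey, cocaine in red and the library number beside each point. At 28 days the Nr4a1 points rise from 12.7 and 21.6 RPKM to 52.5 and 62.5 RPKM, and at 1 day they show no such order.

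At 1 day, where the numbers are those of the labels, the same relations were -0.245 for Nr4a1 (permutation p = 0.513, rho -0.147, p = 0.676), -0.036 for Nr4a2 (permutation p = 0.919, rho -0.0909, p = 0.792) and -0.306 for Nr4a3 (permutation p = 0.377, rho -0.287, p = 0.395). Over the 13817 genes tested in all tables the median r between the NAc and PFC was 0.124 at 28 days and -0.118 at 1 day. At 28 days Nr4a1 had the highest r of all of them, Egr1 the next at 0.933, Arc was number 9 (0.877), Fos number 24, Nr4a2 number 27 and Nr4a3 number 32. Of the 14 other immediate early genes among the 13817, 12 had an r above 0.5 at 28 days (median 0.733), where 10.1% of all genes did, and 0 at 1 day (median -0.0857), where 2.46% did. Between the NAc and VTA at 28 days Nr4a1 gave 0.566 over 11 pairs (permutation p = 0.0831, rho 0.509, p = 0.14), and between the PFC and VTA 0.501 (permutation p = 0.124, rho 0.518, p = 0.126).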

How the data were processed

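RNA-seq of 71 libraries in 12 groups was analysed as the authors deposited it. The authors aligned reads with STAR 2.4.1d to mm9 and deposited unnormalized gene counts for the NAc at both time points and for the VTA and PFC at 28 days. The other tables, of VTA and PFC at 1 day, hold RPKM as the authors computed it, divided by gene length and library reads. The counting tool and its strand setting are not given in the sources used here. The authors' columns of fold changes and p-values, and 30 further columns of library values that belong to no sample analysed here, were not used. Samples were grouped by their titles, regions and time points. At 28 days a column gives its group but not which labelled sample it is.

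RPKM values of the VTA and PFC were turned back into whole reads by the step that 1 read is worth. All values of a gene came out whole, within 0.01, for 23804 of 23806 genes with reads in the VTA (99.99%) and 23351 of 23353 in the PFC (99.99%), and edgeR on these reads called 55 genes in the VTA and 1 in the PFC. RPKM for the count tables was computed with the lengths behind the deposited RPKM (2481 bases for Nr4a1, 3576 for Nr4a2 and 5728 for Nr4a3).

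Counts were tested with edgeR 4.0.16 in R 4.3.3 (filterByExpr, TMM, glmQLFit and glmQLFTest), and the RPKM tables with limma 3.58.1, as log2 of RPKM plus 0.1, for genes averaging 0.5 RPKM or more. Models over time points or regions used counts and recovered reads, and treated libraries as independent although a mouse may have given several regions. p-values were adjusted over all genes tested by the Benjamini-Hochberg method, and genes under 0.05 were called. Each member was also tested by a two-sided exact permutation test of group means of log2(RPKM + 0.1), 18 tests in all. Relations between libraries were tested by 100000 permutations within groups. No source says which libraries came from which mice, so p-values measure the spread between these libraries. Libraries of a group all differed by more than sampling noise. The scripts were tested on simulated data.

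Alternatives were DESeq2 1.42.0, its size factors, testing all genes without the filter, adding 1 in place of 0.1, edgeR on recovered reads, the replicate number as a block, cocaine in place of saline libraries between time points, and leaving out each library. Leaving out the 2 VTA libraries with the most cortical markers was added after seeing the data. Genes named are the members, the 2 genes of each list with the smallest p in the NAc at 1 day, called genes, targets the study names, and the 5 genes most like each member. The members and the lists were chosen with earlier results of these data known. The software was Python 3.11.15 with scipy 1.17.1, pandas 2.3.3, numpy 2.4.6 and matplotlib 3.10.9.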

Additional observations from a re-analysis of the deposited data

Results flagged for a closer look

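In 36 groups of 5 or 6 libraries, 2 single libraries lay far from the rest of their group by Dixon's test, near the number that chance gives at about 1 in 20. Nr4a2 in cocaine NAc library 6 at 1 day was 11.7 RPKM, where the next library was at 3.81. This library also had the highest sum of cortical excitatory neuron markers of the 12, at 862 CPM. Nr4a3 in saline VTA library 4 at 1 day was 0.148 RPKM, from 20 reads, where the next library was at 0.299, and its cortical marker sum of 6.19 CPM was the lowest of the saline libraries. The part of tissue composition in either value was not tested.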

How the results depend on the processing

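Of the results of the members, 167 kept their direction and their side of the threshold under the alternatives other than leaving out a library, 8 turned and 1 gained a call. DESeq2 called Nr4a3 in the NAc at 1 day (0.8184). Directions turned for Nr4a1 in the VTA at 1 day in edgeR without the 2 libraries highest in cortical markers (-0.006065), for Nr4a2 between NAc and PFC at 1 day under the replicate block (-0.09312), and, with cocaine libraries in place of saline libraries between the time points, for Nr4a2 in the NAc, VTA and PFC (-1.203, 0.6454 and -0.2061) and Nr4a3 in the same regions (-0.3548, -0.05174 and -0.1337), of which only Nr4a3 in the VTA had been called. Leaving out each library turned 32 values and left 1131 as they were, none of the 32 called, and ended 4 calls, all of Nr4a3 between time points in the VTA, at 0.702 to 0.7778 (0.702 to 0.9017 over all fits). The ranges were -0.1932 to 0.8184 for Nr4a2, cocaine, NAc at 1 day, -0.09017 to 0.3169 for Nr4a1 and -0.1711 to 0.1673 for Nr4a3, NAc at 28 days, -0.2102 to 0.06582 for Nr4a1, VTA at 28 days, -0.5505 to 0.3952 for Nr4a2 between time points in the NAc, -0.228 to 0.1144 for the Nr4a1 interaction with time in the PFC, -0.2207 to 0.3231 at 1 day and -0.7136 to 0.1151 at 28 days for Nr4a2 between NAc and PFC, -0.01294 to 0.2586 for the Nr4a1 interaction of NAc and VTA, and -0.4668 to 0.5343 for the Nr4a2 interaction of NAc and PFC. Nr4a3 in the NAc at 1 day ranged from 0.7022 to 0.9382, never called by edgeR. Nr4a3 in the VTA at 1 day was below the filter without cocaine library 3, 4 or 6, and otherwise ranged from 0.8343 to 1.088. The cause of these moves was not tested. Counts of all genes called went from 2 to 21 in the NAc and from 10 to 55 (edgeR on recovered reads, 24 without the 2 libraries) in the VTA at 1 day, and from 0 to 20, 83 and 2 in the NAc, VTA and PFC at 28 days with DESeq2; the interactions went with DESeq2 from 3 to 12, 0 to 199 and 1 to 6 with time in the NAc, VTA and PFC, and from 18 to 128 between NAc and VTA. Leaving out 1 library gave 0 to 2 called genes in the NAc at 1 day and 0 to 65 in the VTA, where the 65 came without cocaine library 6 and 0 without cocaine library 2, 3 or 4 or saline library 1 or 5. Same-numbered cocaine and saline libraries at 1 day correlated at -0.54 to 0.65 in the NAc and -0.33 to 0.50 in the VTA. In the PFC they correlated at -0.20 to 0.13. A library was best with its own number in 1, 2 and 0 of 6 pairs, which does not show that the numbers pair the treatments. This comparison was made within a region and cannot tell whether a number marks 1 mouse across regions. With the replicate block Nr4a3 was at 0.81 in the NAc (edgeR adjusted p = 0.868), called genes went from 10 to 60 in the VTA at 1 day and from 18 to 10 in the interaction of NAc and VTA, and no call of a member changed. At 28 days no block could be set, because the columns carry no labelled number. At 20 to 55 reads per library, Nr4a3 in the saline VTA at 1 day is the value that depth limits most.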

Other observations

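Other nuclear receptors, a list of 18 outside the Nr4a family with clock receptors, steroid receptors and receptors for thyroid hormone and retinoids, held no called gene in any comparison of cocaine with saline. In the NAc at 1 day none had an unadjusted p under 0.05 and the median log2 fold change was 0.01, while Rara, a retinoic acid receptor, was at -0.36 (SE 0.2, edgeR adjusted p = 1) and Nr1d1, a repressor in the clock, at -0.16 (SE 0.102, 1). In the VTA at 1 day 4 of the 18 had an unadjusted p under 0.05 with cocaine higher, where 11.2% of all genes did. Between the time points in saline mice 5 were called higher and 8 lower at 28 days in the NAc, 7 and 8 in the PFC and 5 and 4 in the VTA, with medians of -0.12, 0.07 and -0.07, where 31.4%, 33.8% and 26.2% of all genes were called higher and 31.8%, 32.5% and 18.6% lower in the NAc, PFC and VTA. Without saline PFC library 4 the PFC had 6 higher and 8 lower. Rara, Thra, Nr2f6 and Esrra were called higher and Nr1d2, Nr2c1, Nr2c2 and Rora lower in all 3 regions, with Rara at 1.09, 1.34 and 1.51 in the NAc, PFC and VTA, where Nr4a1 was higher by 1.27, 1.08 and 1.07.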
